A study of Mus musculus with 9 samples.

Results

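*Tlr4* encodes the Toll-like receptor for lipopolysaccharide (LPS) of Gram-negative bacteria, and its transcript was described here in lung grafts and sham-operated lungs of 2 mouse strains. It was followed as 1 gene of the 22909 that could be named on the arrays, through both array probes whose transcript accession belongs to mouse *Tlr4*, out of 56601 probes tested. The gene was chosen from the values of these arrays, because its signal in the sham lung of one strain stood far below that in the sham lungs of the other. Its levels over the strains and the grafts are therefore given as a description without a test.

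TLR4 sits on the surface of macrophages, monocytes, dendritic cells and neutrophils, and also on endothelial and airway epithelial cells of the lung. LPS is handed to it by LBP and CD14, bound by its partner MD-2 (the product of *Ly96*), and the dimerised receptor then signals through MyD88 to NF-κB and through TRIF to IRF3 and type I interferon. As background, the C57BL/10ScN substrain of mice is known to lack the *Tlr4* gene through a deletion, which not all C57BL/10 substrains share. The substrain of the C57BL/10 mice is not given in the sources used here.

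The study transplanted left lungs of C57BL/10 donors into C57BL/6 recipients, a strain pair that differs in minor histocompatibility antigens, and harvested the grafts at day 21. All mice were young adult males. By histology, 3 grafts formed the OB group, with obliterative bronchiolitis, in which the small airways scar and close, and 3 grafts formed the non-OB group, without it. The sham group comprised left lungs of 3 mice that had a thoracotomy only, and each of the 9 lungs was measured on 1 array. All 9 samples, shams included, carry the labels C57BL/10 for the donor strain and C57BL/6 for the recipient strain, whereas the study's clustering names sham 1 as C57BL/10 and sham 2 and sham 3 as C57BL/6. The strains of the clustering are used here. The C57BL/10 sham is thus a single lung, and the grafts are whole lungs that can hold cells of both donor and host.

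Signals were scaled so that the trimmed mean of each array was 2500 and were then expressed as log2. Between 58.6% and 69.6% of spots on an array were well above background, which is the call of the scanner software that a spot exceeds its surroundings, and no spot was saturated. The number of arrays limits the precision of each value. The arrays of OB 1, non-OB 1, sham 1 and sham 2 shared slide 1, while slides 2 and 3 carried 1 OB and 1 non-OB array each, and sham 3 lay on slide 4. *Sftpc*, the surfactant gene of alveolar type II cells, read between 18.4 and 19.0 on the log2 scale in all groups. Not every lung marker was as even. The epithelial gene *Scgb1a1* read 14.2 in OB 2 and 17.9 to 18.7 on the other arrays.

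One *Tlr4* probe, called probe 1, separated the 2 sham strains. Its log2 level was 8.63 in sham 2 and 8.60 in sham 3, both C57BL/6, and 2.16 in sham 1, the C57BL/10 lung. In sham 1 the spot was not well above background, with a median spot brightness of 32.5 against a local background of 29. The spots of sham 2 and sham 3 had brightness values of 217 and 223 against 28 and 25. The C57BL/6 shams averaged 8.62 ± 0.02 (SD, n = 2), at least 21.8-fold above the C57BL/10 sham. As a bound, their mean was set against the dimmest signal that the software still put well above background on the array of sham 1, so that the C57BL/10 lung held at most 4.58% of the C57BL/6 level. The measured difference was -6.46 on the log2 scale, and it was -2.24 when the background was corrected by normexp with an offset, which draws low signals together.

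The 6 grafts lay between the 2 sham strains at probe 1. The OB grafts had log2 levels of 7.77, 7.33 and 7.58. The non-OB grafts had log2 levels of 7.56, 7.21 and 7.22. All 6 spots were well above background, and every graft was below both C57BL/6 shams and above the C57BL/10 sham, without overlap. On the linear scale the OB grafts held 55.7%, 41.0% and 48.9% of the mean level of the C57BL/6 shams, and the non-OB grafts held 48.1%, 37.7% and 38.0%. The mean over the grafts was 7.44 ± 0.23 (SD, n = 6), or 44.4% of the C57BL/6 level, a difference of -1.17 on the log2 scale. Against the C57BL/10 sham, the OB grafts were at least 10.5-fold and the non-OB grafts at least 8.94-fold higher. The order of the classes at probe 1 was C57BL/6 sham, OB, non-OB and C57BL/10 sham, and in it the neighbours OB and non-OB overlapped.

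At probe 1 the sign of a graft-to-sham difference of *Tlr4* depended on which sham lungs were used. Against the mean of all 3 shams the OB group was 1.10 higher and the non-OB group 0.87 higher on the log2 scale, with an SD of 3.73 among the shams. Against the C57BL/6 shams the same groups differed by -1.06 and -1.29. In bulk tissue, fewer cells that carry a transcript and less transcript per cell cannot be told apart, and neither can donor and host transcript, since no value here separates their alleles.

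**Figure D1:**
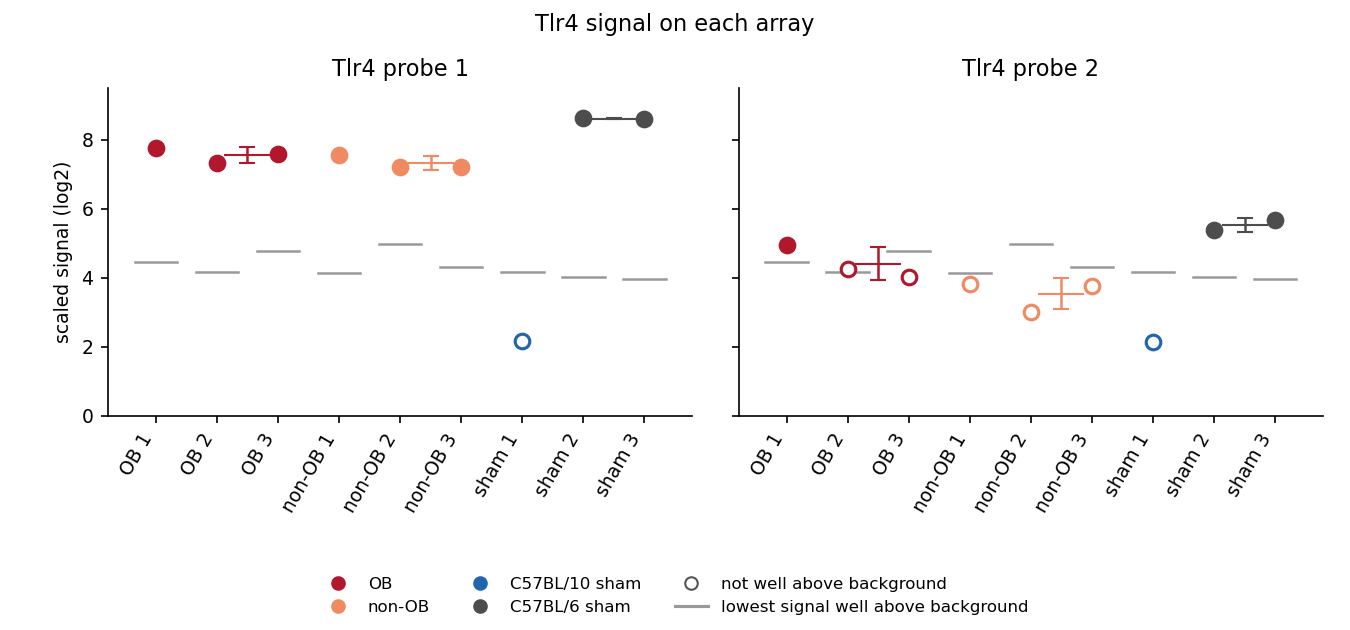
Scaled signal (log2, vertical axis) of *Tlr4* probe 1 and probe 2 on each of the 9 arrays (horizontal axis), with filled points for spots well above background and open points for the others. Bars give the mean and SD of a class with more than 1 array, and grey lines the dimmest signal that the software still put well above background on that array. At probe 1 the grafts sit between 7.21 and 7.77, below the C57BL/6 shams at 8.60 and 8.63 and above the C57BL/10 sham at 2.16.

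The other probe, probe 2, was well above background only on OB 1, sham 2 and sham 3. Its log2 level was 5.39 and 5.68 in the C57BL/6 shams and 2.15 in the C57BL/10 sham. The OB grafts read 4.96, 4.25 and 4.03, and the non-OB grafts read 3.83, 3.02 and 3.76. The measured values of the grafts lay between those of the strains, but the non-OB grafts and the C57BL/10 sham were not well above background, so no order between these classes was established at probe 2. The C57BL/6 shams were at least 2.58-fold above the C57BL/10 sham and at least 2.07-fold above the non-OB grafts. The measured graft levels ranged from 17.5% to 67.0% of the C57BL/6 mean, and for the 5 grafts not well above background these shares are only rough. Each probe had 1 spot per array, so the 2 probes are the only repeat of the measurement within a lung.

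All 4 classes met on slide 1, where probe 1 read 7.77 in OB 1, 7.56 in non-OB 1, 2.16 in sham 1 and 8.63 in sham 2. Within that slide the differences from the C57BL/6 sham were -0.86 for OB 1, -1.07 for non-OB 1 and -6.47 for the C57BL/10 sham on the log2 scale. Sham 1 and sham 2 enter the difference between the strains over all arrays as well, and the level of sham 1 is not well above background, so the value within slide 1 is not a separate measurement of it.

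Whether *Tlr4* differed between OB and non-OB grafts was a comparison that the choice of the gene did not use. At probe 1 the OB mean was 7.56 ± 0.22 (SD, n = 3) and the non-OB mean 7.33 ± 0.20 (SD, n = 3). The difference of 0.23 on the log2 scale did not pass the test (limma, adjusted p = 1; exact two-sided permutation p = 0.2, where the smallest possible is 0.1). Its 95% interval was -3.28 to 3.74 in the fit with 1 mean for all shams, which takes in the spread between the strains. In a fit with the C57BL/10 sham apart from the C57BL/6 shams, added after seeing the data, the interval was -0.24 to 0.71 (limma, adjusted p = 1). OB 2 lay below non-OB 1, so that the groups overlapped.

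At probe 2 the OB grafts were 0.87 higher on the log2 scale (limma, SE 0.85, adjusted p = 1; exact two-sided permutation p = 0.1, the smallest that 3 against 3 can give). All 3 OB values lay above all 3 non-OB values there, although OB 1 alone was well above background. With the sham strains apart, the SE was 0.33 and the interval 0.09 to 1.66 (limma, adjusted p = 1). Within slides 1, 2 and 3 the OB graft exceeded the non-OB graft by 0.21, 0.11 and 0.38 at probe 1 and by 1.12, 0.49 and 1.01 at probe 2. The OB graft was thus the higher one in 3 of 3 slides at either probe, and the fit with slide as a block also gave an adjusted p of 1 from limma. Over all probes, limma called 0% higher in OB than in non-OB and 0% lower, while 307 and 795 had an unadjusted p under 0.05.

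To see which other transcripts set the sham strains apart, all probes were compared between the C57BL/10 sham and the C57BL/6 shams. This is the contrast that singled out *Tlr4*, so the genes it gave are only described. Probes were called at an adjusted p under 0.05 in limma and a difference of at least 2-fold, with the single C57BL/10 lung assumed to vary like the other groups. Of the 56601 probes, 0.0106% (6 probes) were lower and 0.00707% (4 probes) higher in the C57BL/10 sham, and 901 and 1126 had an unadjusted p under 0.05. The number of called probes moved between 0 and 15 when 1 array was left out. It fell to 1 without OB 1, OB 2, non-OB 1 or non-OB 3 and to 0 without OB 3, sham 2 or sham 3.

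Genes lower in the C57BL/10 sham fell into several patterns in the grafts. *Camk2b*, a subunit of calcium/calmodulin-dependent kinase II, had the pattern nearest to *Tlr4*. Its log2 level was 6.06 in sham 1, 10.4 and 10.3 in sham 2 and sham 3, and 8.39 to 9.24 in the grafts, which held 26.3% to 47.6% of the C57BL/6 level. A second *Camk2b* probe read 4.13 in sham 1 and 6.29 and 6.04 in the C57BL/6 shams, with grafts from 4.31 to 5.46. This probe was not well above background in sham 1, and in the grafts it was so on only 1 OB and 2 non-OB arrays.

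*Pttg1*, which encodes securin, the inhibitor of sister chromatid separation, read 10.9 in sham 1, 14.2 and 14.1 in the C57BL/6 shams and 11.7 to 12.1 in the grafts. Its other probe showed a smaller gap, with 4.89 in sham 1, 5.99 and 6.93 in the C57BL/6 shams and 5.21 to 5.87 in the grafts. The transcript *5730409E04Rik* read 8.40 in sham 1, 11.3 and 11.4 in the C57BL/6 shams and 8.82 to 9.17 in the grafts. At the called probes of both, the grafts held between 17.3% and 24.1% of the C57BL/6 level, nearer to the C57BL/10 sham than *Tlr4* was.

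*Arsj*, which encodes an arylsulfatase, was well above background in the C57BL/6 shams alone. It read 7.82 and 7.58 there, 2.06 in sham 1 and 2.09 to 3.04 in the grafts. The transcript *4930455G09Rik* went the other way in the grafts. It was not well above background in sham 1 and read 6.22 and 6.48 in the C57BL/6 shams, while the grafts held 121% to 213% of the C57BL/6 level. Among 5 named genes lower in the C57BL/10 sham beside *Tlr4*, the grafts thus ranged from no signal above background to more than the C57BL/6 level.

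Of the 4 probes that were higher in the C57BL/10 sham, only those of *Mup20*, a major urinary protein, and *1700046C09Rik* could be named. They read 7.10 and 7.35 in sham 1 and were not well above background on any other array, grafts included. The other probe of *Mup20* read 2.60 in sham 1 and was well above background in 1 C57BL/6 sham alone.

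**Figure D2:**
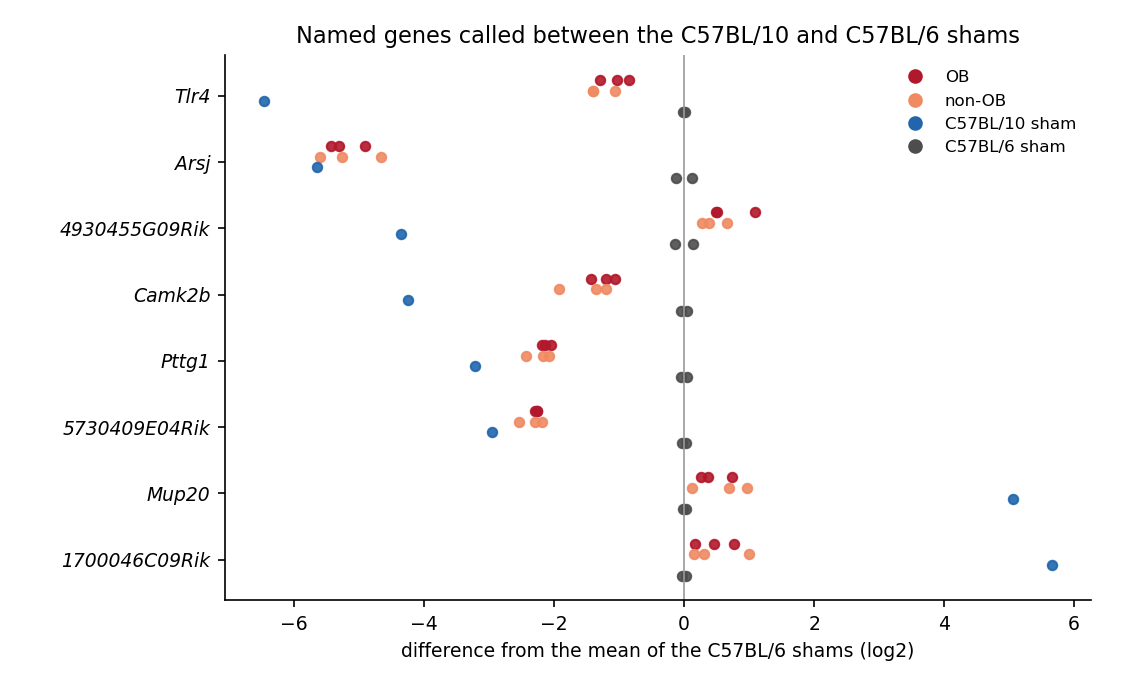
Log2 difference from the mean of the C57BL/6 shams (horizontal axis) on each array for *Tlr4* and the 7 other named genes (vertical axis) that were called between the sham strains, with points coloured by class. The grafts of *Tlr4* and *Camk2b* lie between the strains, those of *Pttg1* and *5730409E04Rik* lie nearer to the C57BL/10 sham, and *Mup20* and *1700046C09Rik* were high in the C57BL/10 sham alone.

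For the genes beside *Tlr4* on its chromosome, levels in both sham strains were measurable. In RefSeq's gene order for GRCm38.p6, the nearest measured genes on one side were *Astn2*, *Trim32* and *Pappa* and on the other *Brinp1*, *Cdk5rap2* and *Megf9*. All 6 were well above background on all 9 arrays, the C57BL/10 sham included. With a single C57BL/10 lung few probes could pass the test, and none of the 6 was called (limma, adjusted p = 1 for each). *Trim32*, a ubiquitin ligase gene that lies within *Astn2*, read 10.99 in the C57BL/10 sham and 10.89 in both C57BL/6 shams. *Cdk5rap2*, a centrosomal protein gene, read 9.84 in the C57BL/10 sham and 10.0 and 10.2 in the C57BL/6 shams. The widest gaps were at *Brinp1*, which was 1.30 lower in the C57BL/10 sham on the log2 scale, and *Pappa*, which was 1.10 higher. Of the 7 named genes called between the strains beside *Tlr4*, 3 lie on the chromosome of *Tlr4* in the same RefSeq table, beside 5.89% of all 22909 named genes. As many, *Camk2b*, *Pttg1* and *1700046C09Rik*, lie together on chromosome 11, so such sharing was not particular to the chromosome of *Tlr4*.

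Likeness to *Tlr4* was measured as the root mean square difference of log2 values over the 9 arrays, each gene centred on its own mean and taken by its brightest probe. The 5 nearest genes were *Camk2b* at 0.77, *4930455G09Rik* at 0.80, *8430429K09Rik* at 0.87, *Gapt* at 1.05 and *Cep85* at 1.10, against 1.83 for a flat profile. Of these 5 genes only *Camk2b* was well above background in the C57BL/10 sham, so the levels of the others there are rough. *8430429K09Rik* read 2.66 in the C57BL/10 sham, 7.89 and 8.11 in the C57BL/6 shams and 5.22 to 6.30 in the grafts. *Gapt*, a transmembrane adaptor of haematopoietic cells, was near its C57BL/6 level in the grafts, which held 51.0% to 159% of it. By the mean absolute difference *Col6a4* replaced *Cep85* among the 5.

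The partners of the receptor were well above background in the C57BL/10 sham, and their strain differences were between -0.92 (*Ly86*) and 0.64 (*Ly96*) on the log2 scale. *Ly96*, which encodes MD-2, read 14.2 in the C57BL/10 sham and 13.5 and 13.6 in the C57BL/6 shams. *Cd14*, the LPS co-receptor, read 11.4, 11.5 and 11.4 in sham 1, sham 2 and sham 3. *Lbp*, which encodes the LPS-binding protein of serum, read 11.1, 10.6 and 10.9. The chaperone genes *Hsp90b1* and *Cnpy3*, whose products fold Toll-like receptors in the endoplasmic reticulum, differed by 0.08 and 0.002 on the log2 scale between the strains, against -6.46 for *Tlr4*. Of the 67 pathway genes other than *Tlr4*, in 5 lists of receptor partners, adaptors and kinases, transcription factors, inhibitors and LPS-induced targets, 0 were called between the sham strains by limma and 5 had an unadjusted p under 0.05. That count is near the shares of 0.0106% and 0.00707% over all probes, so it says nothing particular about the pathway. Their median strain difference was -0.05, beside 0.05 over all probes. The pathway gene with the lowest difference after *Tlr4* was *Cxcl1*, a neutrophil chemokine and LPS target, which read 5.59 in the C57BL/10 sham and 8.67 and 8.15 in the C57BL/6 shams, a difference of -2.83 (limma, adjusted p = 0.264). Its grafts read 6.72 to 7.70 and lay, like those of *Tlr4*, between the strains.

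In the grafts, 1 partner was called against all shams. *Ly86*, which encodes MD-1, the partner of the TLR4 relative RP105, read 13.7, 13.7 and 13.5 in the OB grafts, 13.7, 12.8 and 12.9 in the non-OB grafts and 10.92, 11.71 and 11.97 in sham 1 to sham 3. It rose by 2.11 on the log2 scale in OB (limma, SE 0.33, adjusted p = 0.0114) and by 1.61 in non-OB (limma, adjusted p = 0.0475), and all grafts lay above all shams. The non-OB call was lost on leaving out any 1 of the 9 arrays, with adjusted p between 0.0675 and 0.147 from limma. Over all probes, the share called higher than in sham was 2.72% in OB and 1.81% in non-OB, and the share called lower was 2.43% and 0.71%. The OB and non-OB comparisons share the 3 sham arrays.

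The other 8 partners did not pass the test in either group. *Ly96* differed by 0.34 in OB and 0.52 in non-OB, *Cd14* by 0.54 and 0.67, and *Lbp* by -0.25 and -0.19. The largest of these differences was that of *Tril*, an accessory protein of TLR4, at -1.35 in OB and -1.52 in non-OB (limma, adjusted p = 0.0592 and 0.0626), with all grafts below all shams. *Cd180*, which encodes RP105, differed by 0.94 and 0.90. Among the partners, without *Tlr4*, the middle difference from sham was that of the chaperone gene *Cnpy3*, 0.145 in OB and 0.115 in non-OB. Over all probes the medians were 0.08 and 0.13.

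**Figure D3:**
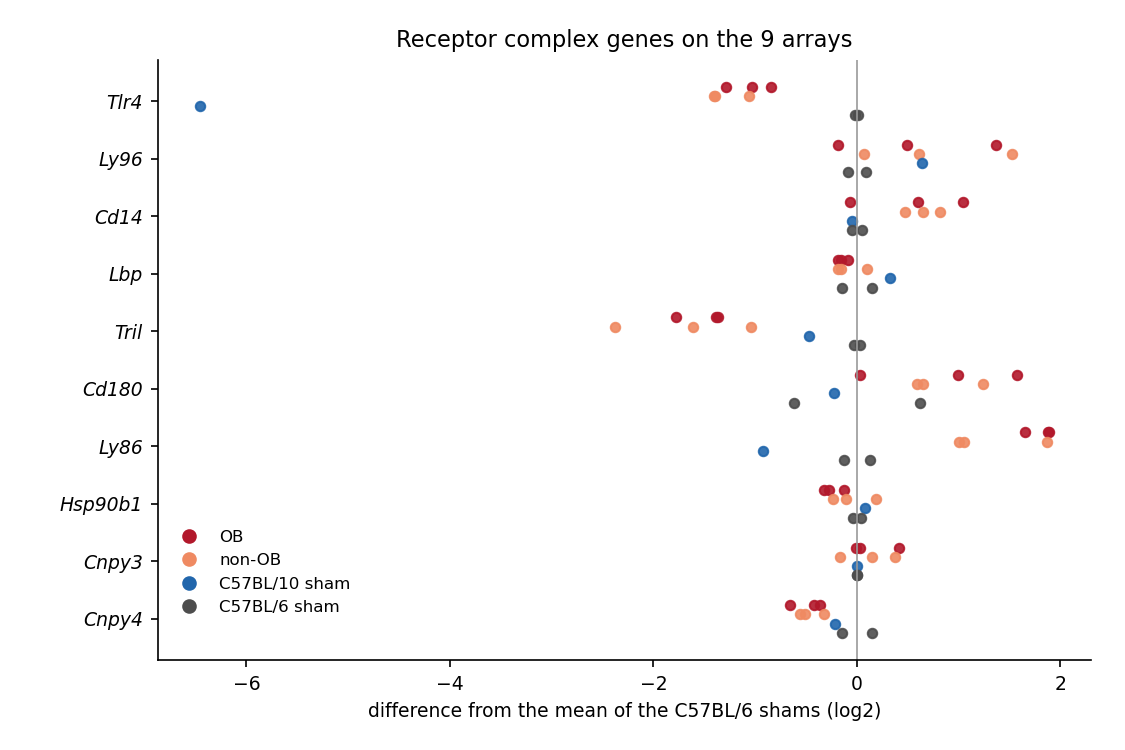
Log2 difference from the mean of the C57BL/6 shams (horizontal axis) on each array for the 10 genes of the TLR4 receptor complex (vertical axis), with points coloured by class. *Tlr4* has the C57BL/10 sham at -6.46 and the other genes have it between -0.92 and 0.64, and *Ly86* has all grafts above all shams.

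Downstream of the receptor, 0 of the 21 adaptors and kinases were called in OB or non-OB, a count near the shares over all probes, with medians of -0.06 in both. The widest differences were those of the kinase genes *Ikbke*, at 1.77 in OB and 1.46 in non-OB (limma, adjusted p = 0.0878 and 0.198), and *Syk*, at 0.85 and 0.82 (limma, adjusted p = 0.0687 and 0.115), and in both all grafts lay above all shams. *Myd88*, the adaptor of the NF-κB branch, differed by 0.23 in OB, and *Ticam1*, which encodes TRIF, by 0.05. Of the 5 transcription factors, *Irf7* and *Irf5* rose. *Irf7*, a driver of interferon genes, read 14.5, 14.8 and 14.9 in OB, 14.9, 14.6 and 14.2 in non-OB and 12.4, 12.7 and 12.7 in the shams. It rose by 2.14 in OB and 1.99 in non-OB (limma, adjusted p = 0.00357 and 0.00801). *Irf5* rose by 1.69 and 1.44 (limma, adjusted p = 0.0107 and 0.0319). The *Irf5* call in non-OB was lost on leaving out OB 2, OB 3, any non-OB array, sham 1 or sham 2, and its call in OB was lost without sham 2 (limma, adjusted p = 0.0532).

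Of 11 inhibitors, *Socs1* and *Tnfaip3* rose in OB and none was called in non-OB, where 1.81% of all probes were called higher and 0.71% lower. *Socs1*, a suppressor of cytokine signalling, rose by 1.85 (limma, adjusted p = 0.0356), and *Tnfaip3*, which encodes the ubiquitin-editing enzyme A20, by 1.38 (limma, adjusted p = 0.025). The *Socs1* call was lost on leaving out any array but OB 1, and that of *Tnfaip3* without OB 1, OB 3 or any sham. In non-OB they differed by 1.67 and 1.16 (limma, adjusted p = 0.0771 and 0.0706), and no pathway gene was called between OB and non-OB by limma, with 3 at an unadjusted p under 0.05.

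Among 21 genes that LPS is known to induce in macrophages, 10 rose in OB and 10 in non-OB, and none fell. Over all probes the share called higher was 2.72% in OB and 1.81% in non-OB, and the share called lower 2.43% and 0.71%. *Cxcl10*, an interferon-induced chemokine that draws T cells, read 13.4, 13.7 and 13.5 in OB, 13.7, 12.8 and 12.8 in non-OB and 7.67, 7.85 and 8.06 in the shams. It rose by 5.68 in OB and 5.24 in non-OB (limma, adjusted p = 0.000237 and 0.000392). *Acod1*, the enzyme that makes itaconate in activated macrophages, rose by 4.75 and 4.43 (limma, adjusted p = 0.0043 and 0.0091). *Saa3*, an acute-phase protein gene, rose by 4.11 and 4.79 (limma, adjusted p = 0.0356 and 0.0344). The chemokine genes *Ccl3* and *Ccl4* rose by 3.07 and 3.04 in OB and by 1.79 and 1.57 in non-OB. Between OB and non-OB they differed by 1.28 and 1.46, with every OB graft above every non-OB graft, although neither was called. For *Acod1* and *Ccl3* in non-OB the call was lost without sham 2 and for *Ccl4* without sham 2 or non-OB 1.

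*Saa3* spread widely among the grafts, from 11.1 to 14.4, and its call was lost on leaving out any sham, OB 1, OB 2 or non-OB 3 in OB, and any sham, OB 2, non-OB 1 or non-OB 3 in non-OB. The classical early cytokine genes of the list did not pass the test, with differences in OB of 0.67 for *Tnf*, 0.12 for *Il6* and -0.17 for *Il1b*. The list's median difference was 1.16 in OB and 0.89 in non-OB. Many of these genes also respond to interferons and other cytokines, and they are not particular to TLR4.

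Over all lists, 15 of the 67 pathway genes other than *Tlr4* were called higher in OB and 13 in non-OB, 12 of them in both, and 0 were called lower. Of all probes, 2.72% were called higher in OB and 1.81% in non-OB, and 2.43% and 0.71% lower. *Il10*, 1 of the 13, was well above background on 1 of 3 non-OB arrays and on no sham. In each of the 15 and the 13 the graft arrays lay above all 3 shams. With slide as a block no pathway gene was called, and *Cxcl10* then rose by 6.01 in OB with an adjusted p of 0.0541 from limma. Within slide 1, OB 1 exceeded both shams of that slide in 15 of the 15 genes and non-OB 1 in 13 of the 13. This follows from the order over all arrays, in genes that the same arrays chose, and is no separate support. By the methods' t-test after Benjamini-Hochberg adjustment, 7 genes were called in OB and 0 in non-OB.

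**Figure D4:**
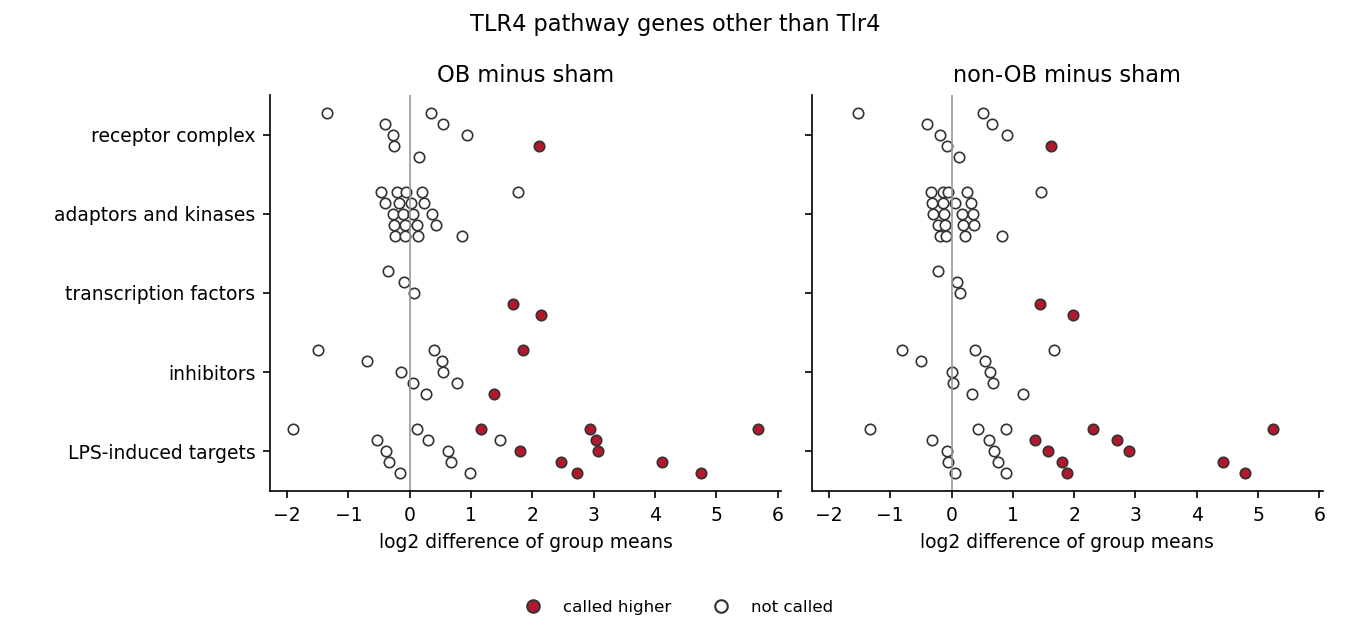
Log2 difference of group means (horizontal axis) from sham in OB (left) and non-OB (right) for the 67 TLR4 pathway genes other than *Tlr4*, by list (vertical axis), with filled points for genes called higher in limma. The adaptors and kinases hold no called gene, and *Cxcl10* lies farthest to the right, at 5.68 in OB and 5.24 in non-OB.

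Against the host strain alone, the grafts had 1.74% of all probes called higher and 1.09% lower than the C57BL/6 shams. Of the 67 pathway genes, 10 were higher and 0 lower in this comparison, with *Ly86* higher by 1.56 (limma, adjusted p = 0.0349). Leaving out an array moved the 10 to between 1 (without sham 2) and 11, and it was 5 without sham 3. The 0 called lower is near the 1.09% over all probes. Beside the -1.17 of *Tlr4* at probe 1, 3 pathway genes that were not called had differences of like size or larger, with -1.59 for *Tril*, -1.57 for *Ptgs2*, the inducible prostaglandin synthase gene, and -1.17 for *Cxcl1* (limma, adjusted p = 0.064, 0.354 and 0.104). The grafts held 31.1% to 61.3% of the C57BL/6 level of *Cxcl1* and the C57BL/10 sham 14.1%.

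Markers of the cell types that are known to carry TLR4 moved in both directions in the grafts. In the list of 10 macrophage and monocyte genes, 4 were called higher and 0 lower against the C57BL/6 shams. Over all probes 1.74% were called higher and 1.09% lower in this comparison. *Csf1r*, the receptor that macrophages need to survive, was not called at 0.60, while *Cd68* rose by 1.91, *Fcgr1* by 1.92 and *Adgre1* by 1.52. The median difference of the list was 0.81. The summed signal of the list lay at 17.5 to 17.7 in OB, 17.5 to 17.6 in non-OB, 17.3 in the C57BL/10 sham and 17.0 to 17.1 in the C57BL/6 shams. Summed signals add the linear signals of a list, so its brightest genes weigh most. All 10 genes were well above background in every class.

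In the list of 7 endothelial genes, 4 were called lower and 0 higher against the C57BL/6 shams, beside 1.09% and 1.74% of all probes. *Cdh5*, the cadherin of endothelial junctions, fell by 1.14 on the log2 scale, *Kdr*, a receptor for VEGF, by 2.02, *Tek* by 1.61 and *Cldn5* by 1.52. The summed endothelial signal lay at 15.0 to 15.1 in OB, 15.5 to 15.8 in non-OB, 16.9 in the C57BL/10 sham and 16.6 to 16.7 in the C57BL/6 shams. *Cdh5* read 13.9 in the C57BL/10 sham and 13.6 and 13.5 in the C57BL/6 shams, and *Csf1r* read 14.05 against 14.13 and 14.26.

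Other leukocyte lists rose in the grafts. Against the C57BL/6 shams, 5 of 6 T cell genes, 4 of 7 dendritic cell genes and 2 of 5 pan-leukocyte genes were called higher. Of all probes, 1.74% were called higher there and 1.09% lower. *Cd3e* was higher by 1.70, *Flt3* by 2.64 and *Cd52* by 1.48. Among the dendritic cell genes *Zbtb46* differed by -0.31 and was not called. The first gene of the pan-leukocyte list, *Ptprc* (CD45), differed by 1.00 and was not called (limma, adjusted p = 0.0682). None of the 7 neutrophil genes measured, the 8 alveolar macrophage genes or the 6 B cell genes was called. *S100a8* differed by -1.33, with -2.52 in OB and -0.14 in non-OB, and *Siglecf* by -0.66. The first 2 of these lists were mixed, with 3 of the 7 neutrophil and 3 of the 8 alveolar macrophage genes higher. Their medians were -0.95 and -0.26. Against all shams 1 alveolar macrophage gene, *Car4*, which endothelial cells also express, was lower in OB by -2.17 (limma, adjusted p = 0.0109). Of 8 epithelial genes only *Hopx*, a gene of alveolar type I cells, was called against the C57BL/6 shams, at -1.39. Of 6 fibroblast genes none was called there. *Col1a1* differed by 0.52, but the median of the list was -0.40, with 2 of the 6 genes higher. Compared with all shams, the fibroblast gene *Pdgfra* was called lower in OB, at -1.02 (limma, adjusted p = 0.0424).

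The marker lists also differed between the sham lungs. In the C57BL/10 sham the summed signal was 1.11 lower for the B cell list, 0.98 lower for the pan-leukocyte list and 0.70 lower for the T cell list than in the C57BL/6 shams on the log2 scale, with 0 of 5 pan-leukocyte and 0 of 6 T cell genes above the C57BL/6 mean. The summed macrophage and monocyte signal was 0.22 higher, but 3 of its 10 genes lay above the C57BL/6 mean and their median difference was -0.25, with *Ccr2* at -1.67. None of the 70 marker genes measured was called there, where 0.0106% and 0.00707% of all probes were. The part that macrophage, endothelial or other cell content has in the *Tlr4* level was not tested, in the grafts or in the C57BL/10 sham.

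**Figure D5:**
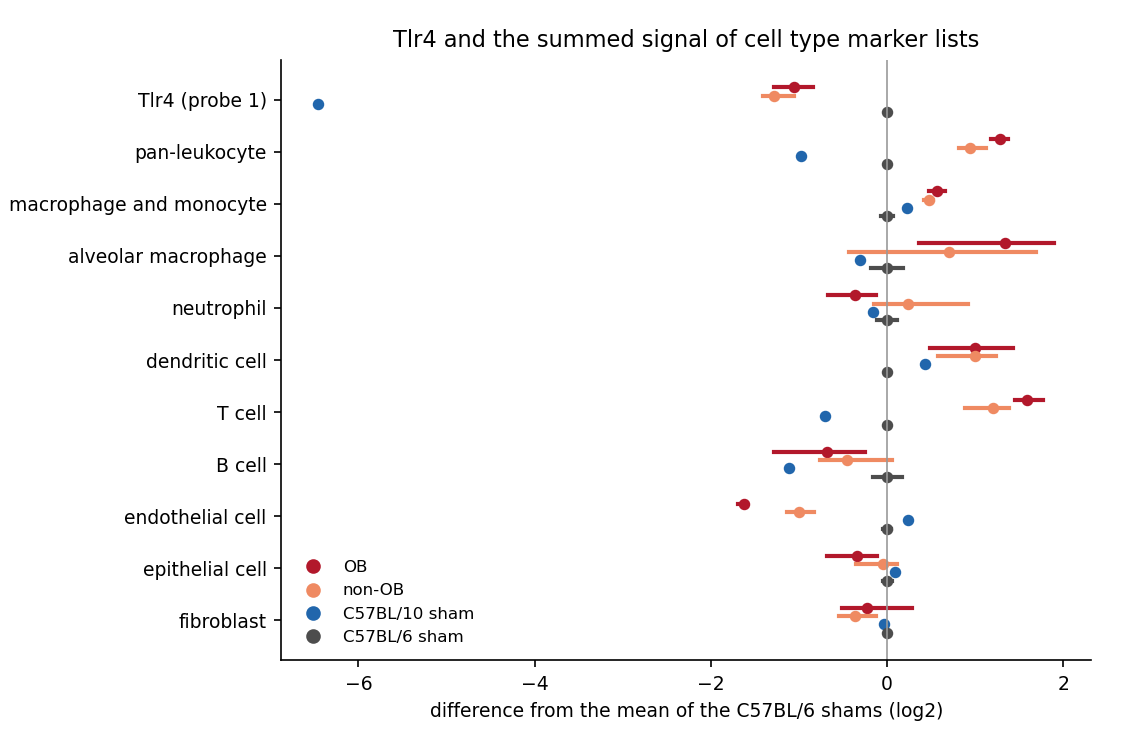
Log2 difference from the mean of the C57BL/6 shams (horizontal axis) for *Tlr4* probe 1 and for the summed signal of 10 cell type marker lists (vertical axis), by class. Points give class means and bars the range over arrays. *Tlr4* and the endothelial list lie below the C57BL/6 shams in the grafts, the macrophage and T cell lists above them. The brightest genes of a list weigh most in its sum. The alveolar macrophage sum lies 1.34 above the C57BL/6 shams in OB and 0.70 in non-OB, while the median gene of that list differed by -0.26 over the grafts. In the C57BL/10 sham *Tlr4* is at -6.46, and the B cell, pan-leukocyte and T cell lists lie 1.11, 0.98 and 0.70 below the C57BL/6 shams.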

How the data were processed

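RNA of 9 left lungs was hybridised to Agilent 1-colour mouse arrays. The authors labelled it with 1 dye and extracted background-subtracted, detrended signals with Agilent Feature Extraction (12.0.3.1 in the submitters' processing notes), and they deposited the intensity and flags of each spot. A value table that they deposited beside these holds the intensities after global scaling to a trimmed mean of 2500 (2% trimmed at each end), and it equalled the values computed here within a relative difference of 5e-10.

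Computed here from the deposited processed intensities were the same scaling and log2, after 3671 control spots and 53 to 111 outlier spots an array were left out. Probes printed several times were averaged, and 4 probes were dropped because all their spots were marked on at least 1 array. Accessions were matched to RefSeq's GRCm38.p6 table, which named 32991 probes, and coordinates are left out because the array's design used another build. A gene is represented by its probe with the highest mean signal. No Tlr4 sequence is printed because the tables used here hold none.

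Groups came from the labels and sham strains from the study's clustering. Tests used limma 3.58.1 in R 4.3.3 (lmFit, eBayes, Benjamini-Hochberg over 56601 probes), with 1 mean each for OB, non-OB and sham, or with 4 means for contrasts with 1 sham strain. Calls needed an adjusted p under 0.05 and, except for OB against non-OB, a 2-fold change. The 95% intervals came from the same fits. Separate mice gave the arrays, so p-values measure the spread between lungs. The gene, the lists and the tests were chosen with earlier results of these data known. Named were both Tlr4 probes, all receptor complex genes, up to 5 called genes of each other pathway list with the largest change in OB, the named genes called between the sham strains, the 5 genes most like Tlr4, 3 measured neighbours on each side, the first gene of each marker list and any against its list's direction. Other genes of the lists were named after their values were seen. Of the marker genes, 1 had no named probe, and some list members are not reported here. Code was tested on simulated data. Alternatives were other scalings, background correction, the value table, outlier spots kept, a filter on dim probes, blocks, limma-trend, the methods' t-test, single sham strains and each array left out.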

Additional observations from a re-analysis of the deposited data

How the results depend on the processing

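At both *Tlr4* probes the grafts and the C57BL/10 sham stayed below the C57BL/6 shams in every scaling, background correction and left-out array that was run. With normexp and quantile normalization the grafts differed from the C57BL/6 shams by -0.82 (probe 1) and -0.43 (probe 2) and the C57BL/10 sham by -2.24 and -0.75 on the log2 scale, and with quantile normalization alone the last was -6.12 at probe 1. Normexp adds an offset of 50, which draws low signals together. The number of probes called between the sham strains was 1 with scaling to the 75th percentile, 90 with quantile normalization, 0 with slide as a block and 0 to 15 when 1 array was left out. With slide as a block, 0 pathway genes were called higher in OB, non-OB or all grafts.

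Without dim probes, 1 pathway gene each was called lower in OB, in non-OB and in the grafts against the C57BL/6 shams, where 16 were higher, as with limma-trend. By the methods' t-test after Benjamini-Hochberg adjustment 7, 0 and 6 were higher in OB, non-OB and the grafts. Unadjusted, it called 1 lower in OB, 1 lower in non-OB, 3 higher in OB than in non-OB, and 17 higher and 2 lower in the grafts. Against the C57BL/6 shams 7 pathway genes were higher in non-OB, all among the 13 called against all shams, and against the C57BL/10 sham 5 were, 4 of them among the 13 and *Socs1* besides. When 1 array was left out, genes called higher numbered 4 to 12 in non-OB and 1 to 11 in the grafts, and genes called lower 0 to 1 in OB, non-OB and the grafts. The cause was not tested.

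Differences near 0 changed sign without passing the test. In OB, *Ly96* was -0.157 with slide as a block, -0.086 against the C57BL/10 sham and -0.065 (without OB 2) to 0.715 (without OB 1) with 1 array left out. In non-OB, *Hsp90b1* was 0.019 with normexp and -0.198 (without non-OB 3) to 0.013 (without non-OB 2) with 1 array left out, and *Cnpy3* then ranged from -0.012 (without non-OB 3) to 0.258 (without non-OB 2). For the 18 pathway genes recomputed under each setting, 674 values kept direction and call, 96 lost the call, 16 gained it and 6 changed sign.

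The replicate numbers do not pair the samples, since the deviations of same-numbered OB and non-OB arrays correlated at 0.28, -0.40 and 0.03. With the replicate number as a block, 8 pathway genes were called higher in non-OB, and *Tlr4* differed between OB and non-OB by 0.23 at probe 1 (limma, adjusted p = 1). Groups of 3 arrays, a single C57BL/10 lung and a *Tlr4* probe 2 near background limit what can be seen.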

Other observations

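The other Toll-like receptor genes, a list added after seeing the data and given without a test, mostly stood higher in the grafts than in the C57BL/6 shams, unlike *Tlr4*. *Tlr11*, a receptor for profilin of protozoa, read 7.33 to 8.12 in the grafts and 4.40 and 4.76 in the C57BL/6 shams. *Tlr13*, a sensor of bacterial ribosomal RNA, read 11.6 to 12.1 against 10.4 in both. *Tlr2*, the receptor for bacterial lipopeptides, read 11.3 to 11.9 against 10.7 and 10.9. *Tlr1*, *Tlr6* and *Tlr12* also had every graft above both C57BL/6 shams, as did *Tlr7* in all grafts but non-OB 3. They differed from the C57BL/6 mean by 1.63, 1.14, 1.68 and 1.06 on the log2 scale. *Tlr8* was not well above background in any sham. *Tlr3* and *Tlr9* differed by -0.04 and -0.36, and *Tlr5*, the flagellin receptor, by -1.26, close to the -1.17 of *Tlr4*.

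Between the sham strains, *Tlr12* read 7.55 in the C57BL/10 sham and 9.68 and 9.76 in the C57BL/6 shams, and its grafts, at 11.1 to 11.8, lay above both strains. *Tlr5* read 8.58 in the C57BL/10 sham and 8.99 and 9.32 in the C57BL/6 shams, so that its lower graft levels came without the low C57BL/10 level of *Tlr4*. Among the 11 other Toll-like receptor genes, the largest fall in the C57BL/10 sham was thus -2.17 at *Tlr12*, beside -6.46 at *Tlr4*.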
